A study of Mus musculus with 3 samples.

Results

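The 10 genes described here encode subunits of Polycomb repressive complex 2 (PRC2), which methylates lysine 27 of histone H3, and the demethylases that remove this methylation. They were taken by gene symbol from the 46603 genes of each count table, and all 10 were matched. Ezh1, Ezh2, Eed, Suz12 and Rbbp7 formed the core subunits, Jarid2, Mtf2 and Phf19 the accessory subunits, and Kdm6a and Kdm6b the demethylases. RNA-Seq of polyadenylated RNA had been performed on 3 libraries of KO-actin cells, which are mouse embryonic fibroblasts (MEFs) that lack endogenous β-actin and express β-actin fused to a signal for import into the nucleus (NLS-tagged β-actin). The NLS-tagged lines were described as made in earlier work, and the promoter of the construct, the number of clones and the age of the embryos are not given in the sources used here. All libraries shared 1 genotype and no agent is named in the labels, so no knockout or wild-type group was compared. Nothing in the labels said that the libraries came from separate cultures, and p-values therefore refer only to these libraries.

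PRC2 places methyl groups on lysine 27 of histone H3 at silent developmental genes. EZH2 or its paralog EZH1 carries the catalytic domain, SUZ12 is the scaffold, EED binds trimethylated lysine 27 and stimulates the enzyme, and RBBP7 or RBBP4 contacts the nucleosome. Accessory subunits divide the complex into a class with a Polycomb-like protein such as MTF2 or PHF19 (PRC2.1) and a class with JARID2 and AEBP2 (PRC2.2). KDM6A (UTX) and KDM6B (JMJD3) take the methyl groups off, after which the same lysine can be acetylated, and acetylated lysine 27 is a mark of active enhancers. In dividing fibroblasts PRC2 is best known for silencing the Cdkn2a locus, whose products halt the cell cycle.

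Promoter sequence was set out first, since EZH2 is known as a gene under the control of E2F factors, which act in proliferating cells, whereas EZH1 is known as the paralog of resting and differentiated cells. RefSeq promoters on GRCm38.p6 were matched for 9 of the 10 genes (Kdm6b was not matched), in 11 entries that each ran from 250 bases before the start to 50 bases after it. The searched words were TTTCCCGC, TTTCGCGC, TTTGCCGC and TTTGGCGC for E2F, CCAAT for the CCAAT box and TATAA for the TATA box, each on both strands. The promoters of Ezh2, Ezh1 and Suz12 are shown from 250 bases before the start to 12 bases after it, the first pair because it sets the paralogs side by side and Suz12 as the other core subunit with an E2F word. Capitals mark an E2F word or a CCAAT word on either strand (CCAAT on the reverse strand reads ATTGG). The Ezh2 sequence lay at chr6:47595019-47595280 on the minus strand, the Ezh1 sequence at chr11:101226452-101226713 on the minus strand and the Suz12 sequence at chr11:79992856-79993117 on the plus strand.
Ezh2: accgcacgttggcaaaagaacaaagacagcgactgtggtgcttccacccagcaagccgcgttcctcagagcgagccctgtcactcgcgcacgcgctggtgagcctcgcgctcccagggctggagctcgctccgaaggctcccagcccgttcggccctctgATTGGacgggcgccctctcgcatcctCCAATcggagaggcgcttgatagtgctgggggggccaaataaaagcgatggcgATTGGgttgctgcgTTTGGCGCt
Ezh1: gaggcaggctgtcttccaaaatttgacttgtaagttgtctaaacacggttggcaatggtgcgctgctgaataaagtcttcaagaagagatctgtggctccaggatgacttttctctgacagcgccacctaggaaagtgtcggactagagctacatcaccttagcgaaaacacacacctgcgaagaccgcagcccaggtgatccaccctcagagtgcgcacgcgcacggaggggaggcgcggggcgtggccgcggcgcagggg
Suz12: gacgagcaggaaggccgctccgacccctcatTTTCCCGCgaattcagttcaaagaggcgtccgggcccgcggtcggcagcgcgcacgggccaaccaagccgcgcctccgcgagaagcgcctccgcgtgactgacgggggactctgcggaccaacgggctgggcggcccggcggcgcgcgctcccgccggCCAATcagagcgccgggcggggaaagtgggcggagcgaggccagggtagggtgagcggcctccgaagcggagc
An E2F word was found in 3 of the 11 entries and in 2.26% of 32851 mouse promoters of the same length. In Ezh2 it was TTTGGCGC at bases 4 to 11 counted from the start, in Suz12 TTTCCCGC beginning 219 bases before the start, and in Phf19 TTTCCCGC on the reverse strand, beginning 208 bases before the start. CCAAT was found in 7 of the 11 entries, against 37.4% of all promoters. Ezh2 held 3 such words, beginning 90, 64 and 11 bases before its start, and Ezh1 held none. TATAA was found in 1 entry of Jarid2, against 24.9% of all promoters. The Ezh2, Ezh1 and Suz12 promoters were 64.3%, 59.3% and 71% G and C and held 31, 23 and 41 CpG dinucleotides, against medians of 52.7% and 7 over all promoters. A match of letters is a description and not a measured binding site.

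Library totals were 44383636 to 49932446 counts, and a count of 0 allowed a level of up to 0.0601 to 0.0673 CPM (counts scaled to a library of 1000000), taken as 3 counts and covering counting error only. Actb, the targeted gene, held 1078, 1111 and 1066 CPM, and these counts do not separate transcripts of the targeted locus from those of the NLS-tagged construct. Of the 11 fibroblast markers 10 were above 3 counts in every library, against 58.9% of protein-coding genes. The summed level was 12192 to 13121 CPM, most of it from Vim, Col1a1 and Fn1 (means of 4562, 4057 and 3578 CPM). The exception, Lum, was listed at 0, and Dcn (0.152 ± 0.0153 CPM, SD, n = 3) and Thy1 (0.836 ± 0.257 CPM) were low. Dcn passed with only 6 to 8 counts. Col1a2 (20.99 ± 1.55 CPM) and Pdgfra (4.97 ± 0.295 CPM) also stood far below Col1a1. Marker lists of other cells stayed low: 0 of 3 epithelial, 1 of 3 blood, 2 of 3 endothelial, 4 of 4 neuronal and 1 of 3 pluripotency markers were above 3 counts in every library, with summed levels of at most 6.37 CPM. Of the defining markers, Ptprc, Cdh5, Epcam, Pou5f1 and Sox2 held at most 2 counts in any library, whereas Kdr held 79 to 113 counts, Nanog 26 to 30 and Spi1 7 to 14, and Cdh1 and Lyz2 reached 12 in replicate 2. In bulk RNA, fewer cells of a type and less RNA per cell cannot be told apart.

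All 10 genes were detected in every library, with 923 counts as the smallest value. The levels below are CPM after TMM scaling of library sizes, and levels of different genes are compared as CPM per kilobase of merged exon (CPM per kb). By this measure the order was Rbbp7, Suz12, Ezh2, Eed, Mtf2, Phf19, Kdm6b, Kdm6a, Ezh1 and Jarid2, from 154.7 ± 1.13 to 2.096 ± 0.0323 CPM per kb (SD, n = 3). Neighbours in this order did not overlap between libraries, except Mtf2 and Phf19, whose ranges did. With the longest coding transcript as the length, Ezh2 moved above Suz12 and Ezh1 above Kdm6a, and the other places were kept. Opposite-strand neighbours overlapped part of the exons of Mtf2 (6.93%, Tmed5), Eed (6.82%, E230029C05Rik), Rbbp7 (5.98%, Txlng), Kdm6b (4.11%, Kdm6bos), Suz12 (3.60%, Gm26563) and Ezh2 (2.61%, Gm26625), and reads there cannot be told apart if counting ignored strand. Ezh1, Phf19, Jarid2 and Kdm6a had no such overlap. For scale, 12087 protein-coding genes reached 10 counts in each library (the expressed genes below), with a median of 7.19 CPM per kb and quartiles of 2.14 and 19.2.

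**Figure D1:**
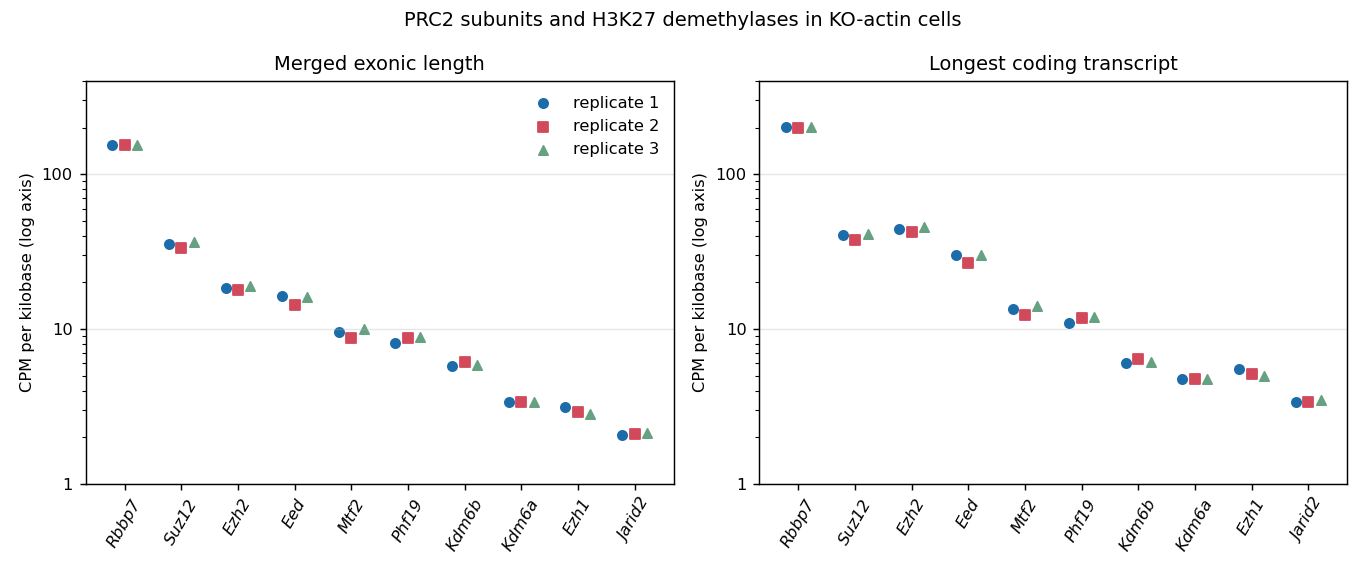
CPM per kilobase (log axis) of the 10 genes in each of the 3 KO-actin libraries, with 1 point per library, by merged exonic length on the left and by longest coding transcript on the right, both in the order of the left panel. Rbbp7 sits far above the rest near 155 CPM per kb on the left, and Ezh2 and Suz12 change places between the panels.

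Among the catalytic subunits, Ezh2 exceeded Ezh1 in every library. Ezh2 (chr6:47530139-47595341, minus strand) held 123.1, 118.5 and 126.4 CPM in replicates 1, 2 and 3, or 18.4 ± 0.591 CPM per kb, above 73.7% of the expressed protein-coding genes. Ezh1 (chr11:101191115-101226463, minus strand) held 23.2, 21.6 and 20.8 CPM, or 2.94 ± 0.160 CPM per kb, above 30.02% of them. Replicate 2 was lowest for Ezh2 and replicate 3 was lowest for Ezh1, and the libraries of the paralogs stood far apart. Per kilobase, Ezh2 was 5.92-, 6.13- and 6.76-fold above Ezh1, a mean log2 ratio of 2.65 ± 0.10 (SD, n = 3). The exact sign-flip permutation test (two-sided) gave p = 0.25, which is the smallest p that 3 libraries allow and is the same for every ratio below. It follows from the shared direction of the ratios in the libraries and not from their spread. Ezh2 made up 86.2% ± 0.807 of the summed Ezh1 and Ezh2 level per kilobase. The size of the ratio depended on the length used, with 8.48-fold by longest coding transcript and 5.62-fold without division by length, but Ezh2 was higher in each case.

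The partners of the enzyme in the core spanned a wide range. Suz12 (chr11:79993106-80034123, plus strand), the scaffold, held 176.0, 164.0 and 179.1 CPM, or 35.0 ± 1.62 CPM per kb. Eed (chr7:89954654-89980983, minus strand), the reader of the methyl mark, held 62.4, 54.9 and 61.9 CPM, or 15.6 ± 1.09 CPM per kb. Replicate 2 was the lowest library of both, and their libraries did not overlap. Suz12 was 2.24-fold above Eed per kilobase of exon, but 1.37-fold by longest coding transcript. Set against the summed Ezh1 and Ezh2 level, Eed stood at 0.731-fold per kilobase of exon and at 0.586-fold by coding transcript. Suz12 stood at 1.64-fold and 0.804-fold, so that its place above or below the catalytic subunits turned with the length used.

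Rbbp7 (chrX:162760402-162779092, plus strand), a histone-binding protein that also serves in deacetylase and remodelling complexes outside PRC2, was the most abundant of the 10. It held 451.4, 446.3 and 452.4 CPM, or 154.7 ± 1.13 CPM per kb, above 98.0% of the expressed protein-coding genes. The 3 libraries lay within 1.01-fold of each other. Rbbp7 was 7.26-fold above the summed Ezh1 and Ezh2 level per kilobase of exon, and 4.08-fold by coding transcript. Of its 50-base windows, matched on either strand, 15.1% also occurred in transcripts of other genes, chiefly Gm6382 and Txlng. Part of its count could therefore have been split or shared with them, with the opposite-strand neighbour Txlng only if counting ignored strand. Its paralog Rbbp4 held 335.5 ± 11.1 CPM, or 38.4 ± 1.27 CPM per kb, 4.03-fold below Rbbp7 (2.64-fold by coding transcript). For Rbbp4 33.8% of such windows were shared with other genes, chiefly Gm26722 and Sync, which leaves its level less certain.

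Among the accessory subunits, the Polycomb-like genes stood above Jarid2. Mtf2 (chr5:108065674-108109004, plus strand), whose product binds CpG-rich DNA, held 54.8, 49.98 and 57.4 CPM, or 9.49 ± 0.658 CPM per kb. Phf19 (chr2:34893757-34914026, minus strand), which encodes a second Polycomb-like protein, held 41.0, 44.1 and 44.4 CPM, or 8.56 ± 0.378 CPM per kb. Mtf2 was above Phf19 in 3 of 3 libraries, by 1.11-fold on average, but in replicate 2 the ratio was only 1.002 and the ranges overlapped. Jarid2 (chr13:44729474-44921643, plus strand), whose product is a demethylase relative without that activity and helps to bring PRC2 to chromatin, held 20.1, 20.2 and 20.7 CPM, or 2.096 ± 0.0323 CPM per kb. It was the lowest of the 10 by both lengths, above 24.7% of the expressed protein-coding genes.

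The core median was above the accessory median in every library, by 2.27-, 2.03- and 2.15-fold per kilobase (mean log2 ratio 1.10 ± 0.08, SD, n = 3, exact permutation p = 0.25). In every library the core median was the value of Ezh2 and the accessory median that of Phf19, so this ratio was that of Ezh2 to Phf19. By longest coding transcript the core median was Suz12 instead. This ratio of medians hid a wide core, since Ezh1 lay below Mtf2 and Phf19 in every library. Jarid2 stood 8.61-fold below the sum of Mtf2 and Phf19 (mean log2 ratio -3.11 ± 0.04, exact permutation p = 0.25). Jarid2 is not the whole of PRC2.2, and with Aebp2 added to it and Phf1, Epop, Lcor and Lcorl added to PRC2.1 the gap narrowed to 3.05-fold (log2 ratio -1.61). These are sums over unequal numbers of genes, with more in PRC2.1, so they do not compare the classes gene by gene. Jarid2 lay below Mtf2 and below Phf19 taken alone, whereas Aebp2 (11.9 CPM per kb) lay above each of them. The direction of both ratios was the same in each library and with each length used.

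**Figure D2:**
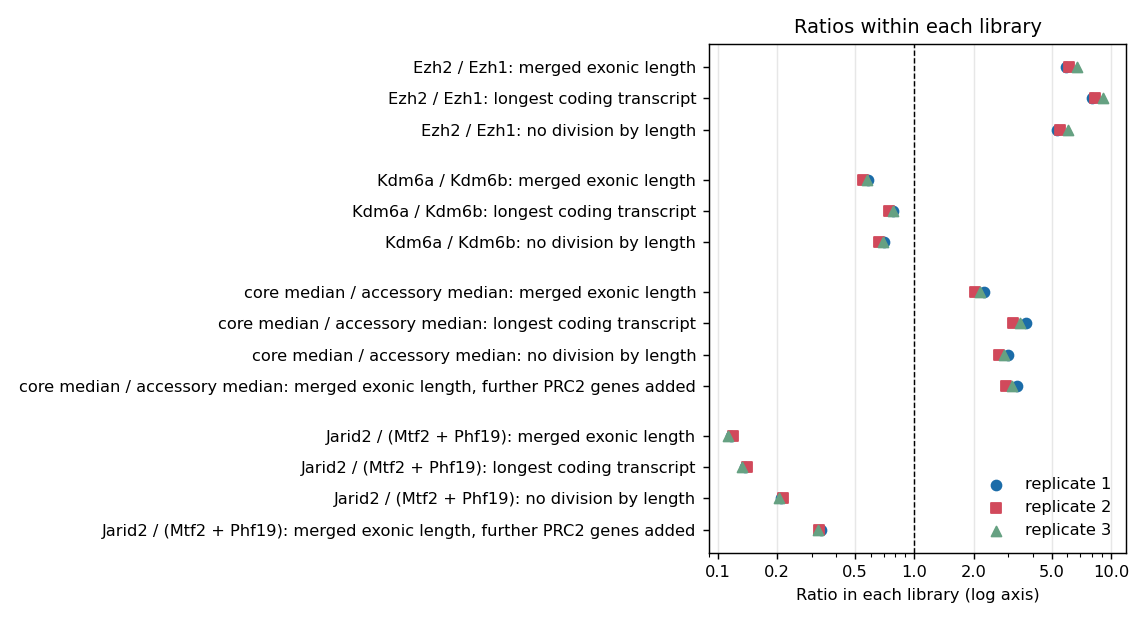
Ratios of levels within each library (log axis), with 1 point per library and a dashed line at equal levels, for each length used and with further PRC2 genes added. The lengths move each ratio more than the libraries do, Ezh2 over Ezh1 from 5.62 to 8.48 on average, and no ratio crosses 1. The ratio of Jarid2 to Mtf2 plus Phf19 sets a sum of fewer genes against a sum of more.

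The other PRC2 genes, listed from textbook knowledge, filled in the accessory classes. Of these 7 genes 6 were above 3 counts in every library. Aebp2, the partner of JARID2 in PRC2.2, held 114.7, 121.4 and 116.9 CPM, or 11.9 ± 0.344 CPM per kb, 5.70-fold above Jarid2. Of the PRC2.1 genes, Epop held 28.7 ± 4.08 CPM (12.4 CPM per kb), above Mtf2 and Phf19 per kilobase of exon in every library. By longest coding transcript its mean was below that of Mtf2 (12.4 against 13.3 CPM per kb). The Polycomb-like gene Phf1 held 33.6 ± 0.840 CPM (9.64 CPM per kb), close to Mtf2 and Phf19 per kilobase. Exons of Cuta and another gene on the opposite strand overlapped 39.3% of the Phf1 exons, and whether counting used the strand is not given in the sources used here. Lcor (15.0 ± 1.10 CPM, 1.89 CPM per kb) and Lcorl (16.5 ± 2.21 CPM, 0.874 CPM per kb), which encode proteins that join PRC2.1, were lower. Ezhip, which encodes an inhibitor of the EZH2 active site known from germ cells, was at 0 counts in all 3 libraries.

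Between the demethylases, Kdm6b was above Kdm6a in every library. Kdm6a (chrX:18162575-18279936, plus strand), whose product works within the MLL3 and MLL4 complexes at enhancers, held 28.1, 28.2 and 28.2 CPM, or 3.36 ± 0.00849 CPM per kb. Kdm6b (chr11:69398508-69413675, minus strand), known as an inducible gene in inflammation and differentiation, held 40.3, 42.6 and 40.5 CPM, or 5.92 ± 0.187 CPM per kb. Kdm6a was nearly equal in the 3 libraries, and Kdm6b was highest in replicate 2. Kdm6b was 1.76-fold above Kdm6a per kilobase of exon (log2 of Kdm6a over Kdm6b -0.82 ± 0.04, SD, n = 3, exact permutation p = 0.25). The difference narrowed to 1.30-fold by longest coding transcript and was 1.46-fold without division by length. Ezh2 exceeded Kdm6a 5.47-fold and Kdm6b 3.10-fold per kilobase of exon, and by coding transcript 9.28-fold and 7.12-fold. Uty, the paralog of Kdm6a on the Y chromosome, held 0, 0 and 2 counts. Of 100-base windows of the Kdm6a transcripts 0% occurred in another gene, and 0.204% of 50-base windows occurred in Uty.

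The genes that encode the partners of UTX in the MLL3 and MLL4 complexes were read beside it. Of 10 such genes, Uty included, 8 were above 3 counts in every library, and of these 7 stood above Kdm6a per kilobase. The enzymes themselves were unequal, with Kmt2d at 141.8 ± 5.20 CPM (7.12 CPM per kb) and Kmt2c at 27.7 ± 1.16 CPM (1.37 CPM per kb), a 5.21-fold difference per kilobase. The subunits shared with other methyltransferase complexes stood at 62.3 CPM per kb for Dpy30, 24.8 for Wdr5, 13.6 for Ash2l and 12.4 for Rbbp5. Those particular to MLL3 and MLL4 stood at 11.6 CPM per kb for Paxip1 and 8.09 for Ncoa6. Pagr1a was at 0 counts in every library, but 98.7% of its exons are overlapped on the same strand by Gm42742 or Pagr1b, so that reads from it could not be assigned to it alone.

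**Figure D3:**
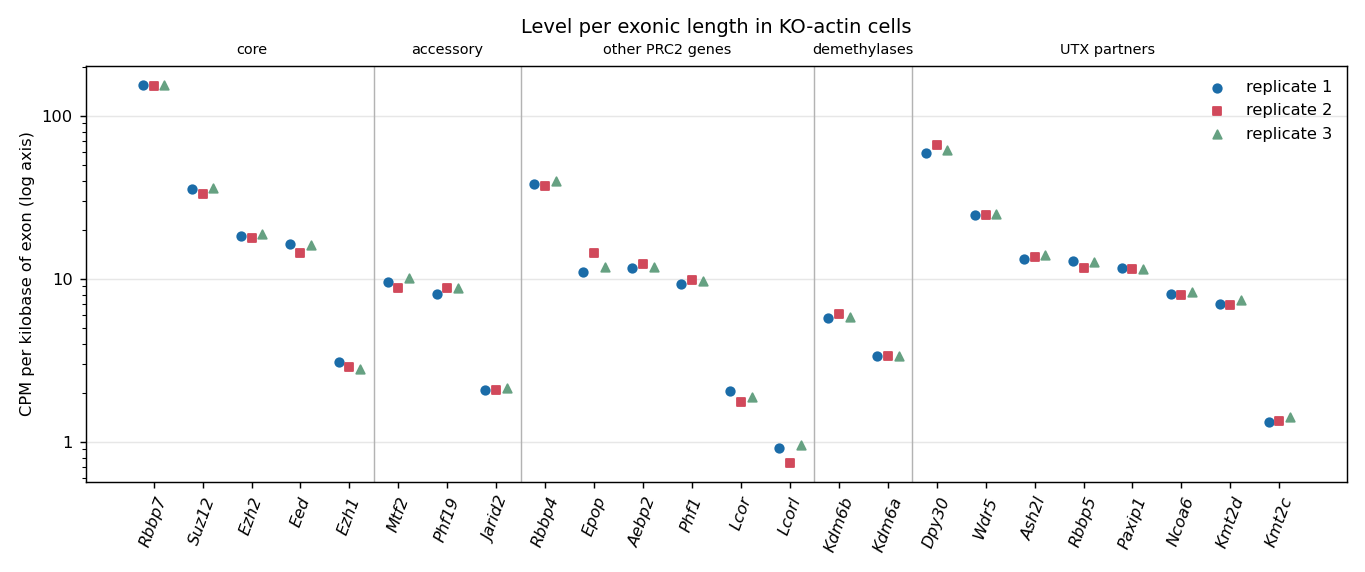
CPM per kilobase of exon (log axis) in each of the 3 libraries for the core and accessory PRC2 subunits, the other PRC2 genes, the demethylases and the UTX partners that were above 3 counts in every library, ordered by level within each class. Jarid2, Kdm6a and Ezh1 lie between 2.096 and 3.36 CPM per kb, below most of their partners.

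To ask whether the 10 genes differed between libraries by more than counting error, a chi-square of each gene's counts against the scaled library sizes was computed with Benjamini-Hochberg adjustment over 13814 genes. It compares these libraries, not conditions. Of the 10 genes 5 passed an adjusted p of 0.05, and of all genes tested 43.8% passed. They were Suz12 (chi-square adjusted p = 2.05e-07), Eed (4.51e-06), Mtf2 (2.82e-05), Ezh2 (0.00801) and Phf19 (0.0400). The other 5 did not pass, namely Ezh1 (chi-square adjusted p = 0.0910), Kdm6b (0.215), Rbbp7 (0.416), Jarid2 (0.845) and Kdm6a (0.993). The differences were small, with a highest library over the lowest of 1.15-fold in Mtf2 and 1.14-fold in Eed. The median of this ratio was 1.07 over the 10 genes and 1.11 over all genes tested. Of the other PRC2 genes 5 of 6 tested passed, Epop with the widest ratio (1.31-fold), and of the UTX partners 4 of 8.

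Eed, Mtf2, Suz12 and Ezh2 were each lowest in replicate 2, and Phf19, the other gene that passed, was not. Against the mean of replicates 1 and 3, replicate 2 stood at a log2 difference of -0.18 for Eed, -0.17 for Mtf2, -0.11 for Suz12 and -0.07 for Ezh2, and at 0.05 for Phf19 and 0.08 for Kdm6b. Over all genes this difference moved with GC content, measured on the longest coding transcript. Spearman's rho was 0.50 across 13770 genes and 0.62 across the 10, which share the same libraries and are not independent. The genes that were low in replicate 2 had transcripts of 38.2% to 47.8% GC, and Phf19 and Kdm6b had 53.9% and 59.6%. Kdm6a (42.5% GC) and Rbbp7 (44.7% GC) lay in the lower range too, but their differences were 0.00475 and -0.02, against medians of -0.10 and -0.06 for genes of like GC content. Genes of like GC content had median differences of -0.16 for Mtf2, -0.12 for Suz12 and -0.07 for Ezh2, close to their own, but -0.03 for Eed.

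When expected counts were scaled within 50 bins of GC content, 2 of the 10 genes passed, against 28.9% of all genes tested. Eed still passed (adjusted p = 0.000362 by chi-square), and Rbbp7, which had not passed before, did so (0.00119). Without replicate 2, 0 of the 10 genes passed the adjusted chi-square, against 12.5% of all genes tested. At an unadjusted chi-square p under 0.05 there were 2, and the share of all genes at that limit was not computed. Leaving out replicate 1 removed the call of Phf19 and leaving out replicate 3 that of Ezh2. The part of GC content in the difference of replicate 2 was not tested beyond this.

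**Figure D4:**
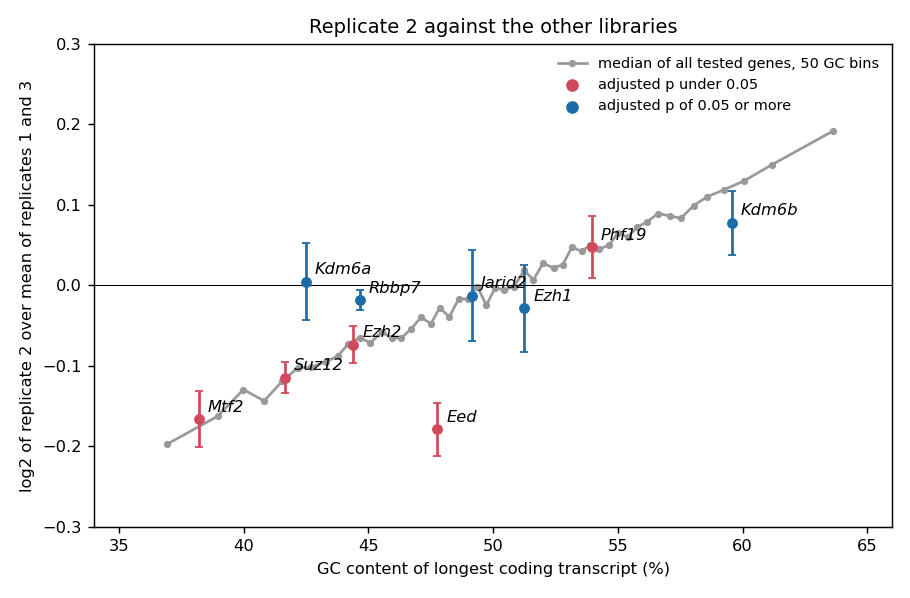
Log2 of replicate 2 over the mean of replicates 1 and 3 against the GC content of the longest coding transcript, with the 10 genes as points, 1 SD of counting error of the difference as bars, and the median of all tested genes in 50 GC bins as the grey line. Mtf2, Suz12 and Ezh2 lie close to the grey line, Eed at -0.18 lies below it, and Kdm6a and Rbbp7 at 0.00475 and -0.02 lie above it.

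Since PRC2 keeps developmental genes silent, 23 genes known as its targets in stem cells or fibroblasts were read as a list. Of these, 11 were above 3 counts in every library, against 58.9% of protein-coding genes, and 7 had a mean of at least 1 CPM, against 52.1%. At the other end, 11 were at or below 3 counts in every library and 7 of them were at 0 throughout, among them Pax7, Sox17, Hand2 and Cdx2, which encode regulators of muscle, endoderm, heart and gut. The shares of all protein-coding genes at or below 3 counts, or at 0, were not computed. Whether the counts of low targets set the list apart from other genes was therefore not tested. The list median was 0.0359 CPM and that of all 21624 protein-coding genes 1.91 CPM. These data hold no measure of histone methylation, so that the state of these genes was not measured.

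The 7 targets above 1 CPM included Cdkn2a and Cdkn2b, the INK4 genes on the list. Cdkn2a, which encodes the inhibitors p16INK4a and p19ARF, held 381.8, 472.9 and 401.4 CPM (418.7 ± 47.9), the highest of the list. These counts do not separate the transcripts of p16INK4a from those of p19ARF. Cdkn2b, its neighbour that encodes p15INK4b, held 59.8, 74.4 and 65.7 CPM. The cardiac factor gene Nkx2-5 held 82.4, 100.6 and 80.5 CPM. Replicate 2 was the highest library for all 3 of these genes, and their transcripts were 60.2%, 55.9% and 67.1% GC. Their log2 differences of replicate 2 from the mean of the other libraries were 0.27, 0.25 and 0.30, above the medians of 0.13, 0.07 and 0.19 for genes of like GC content. The others were the heart and endoderm factor genes Gata4 (42.5 ± 2.12 CPM) and Gata6 (2.11 ± 0.348), the neural crest and muscle factor gene Pax3 (14.2 ± 0.713) and the forebrain factor gene Lhx2 (3.70 ± 0.257). Gata4 and Lhx2 were also highest in replicate 2, whereas Gata6 and Pax3 were not. The differences of Gata4 and Lhx2 were 0.073 and 0.145, near the medians of 0.083 and 0.110 for genes of like GC content.

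**Figure D5:**
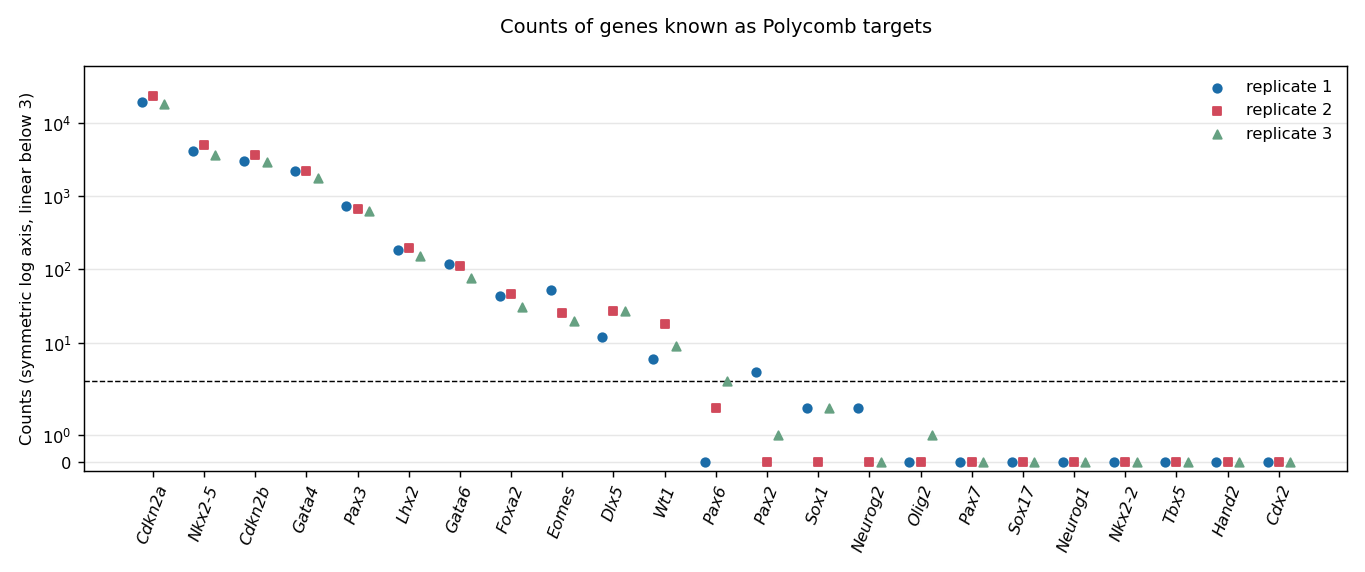
Counts of the 23 genes known as Polycomb targets in each of the 3 libraries (symmetric log axis, linear below 3 counts), ordered by mean level, with a dashed line at 3 counts. Cdkn2a stands at 17882 to 23361 counts and 11 genes lie at or below the line in every library.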

How the data were processed

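RNA-Seq of 3 replicate libraries of 1 condition was analysed. The deposited files hold unnormalized counts for each Ensembl gene, as the authors obtained them. The submitters' processing notes name Trimmomatic, FastQC, HISAT2 and HTSeq and the builds mm10 and GRCm38; versions, settings, read length, strand and annotation are not given in the sources used here, so that shared or overlapping reads may have been dropped or split.

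Symbols, coordinates, exonic lengths and transcripts came from GENCODE M21 on GRCm38 (46091 of 46603 identifiers had a symbol). No genome was used, so that GC content was that of the longest coding transcript. Counts were scaled by TMM over genes that reached 10 counts in each library (edgeR 4.0.16, R 4.3.3; factors 1.00, 0.996 and 1.00), and by total counts or DESeq2 1.42.0 size factors as alternatives. CPM were divided by merged exonic length, and ratios were taken within each library. With 1 condition no contrast was fitted. The chi-square had 2 degrees of freedom, or 1 when a library was left out. It was run on simulated counts with counting error and set changes only. That checks the computation and not whether counting error alone describes these libraries. Python 3.11.15, numpy 2.4.6, pandas 2.3.3, scipy 1.17.1 and matplotlib 3.10.9 were used.

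The genes, lists and tests were chosen with earlier results of these data known. Named were the 10 genes, the listed PRC2 genes, UTX partners, acetyltransferases and H3.3 genes, and Polycomb targets of at least 1 CPM. Lum, Dcn, Thy1, other markers and the targets given as examples at 0 were named after their values were seen.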

Additional observations from a re-analysis of the deposited data

How the results depend on the processing

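No ratio changed direction under another gene length or with further PRC2 genes. PRC2.2 over PRC2.1 set a sum of fewer genes against a sum of more, so its direction was partly fixed by the number of genes summed. By longest coding transcript the log2 ratios were 3.08 for Ezh2 over Ezh1, -0.38 for Kdm6a over Kdm6b, 1.78 for core over accessory and -2.87 for Jarid2 over Mtf2 plus Phf19. The core median was then Suz12 and not Ezh2, so that this setting compared another gene with Phf19. Without division by length they were 2.49, -0.55, 1.51 and -2.25. With further PRC2 genes added, core over accessory was 1.64 and PRC2.2 over PRC2.1 was -1.61, a larger move of that ratio than either length gave. For core over accessory, Rbbp4 joined the core, and Aebp2, Phf1, Epop, Lcor, Lcorl and Ezhip joined the accessory set. Ezhip, at 0 counts, encodes an inhibitor and not an accessory subunit. The accessory median stayed that of Phf19 in every library, so this move came from adding Rbbp4 to the core. The count of the 10 genes that varied between libraries was 2 with expected counts scaled within GC bins (28.9% of all genes tested), and 0 to 4 when 1 library was left out: 4 without replicate 1 (32.9%), 0 without replicate 2 (12.5%, with 2 genes at an unadjusted p under 0.05 by chi-square) and 4 without replicate 3 (34.1%). It was 4 with at least 1 count in any library (25.9%) and 5 with at least 100 counts in each (51.7%), with DESeq2 size factors or with total counts (43.9% for both). Another scaling moved 0 of 20 CPM values past 1 SD, with a largest change of 0.0174%. All scalings were set to the same geometric mean library size, so mean CPM was nearly fixed in advance and this count shows no robustness. The limit of 1 SD is also out of reach when a library is dropped, by arithmetic alone, and those CPM values are therefore not counted. No paired analysis was possible because the series holds only 1 group. With at least 923 counts per gene, depth did not limit the levels of the 10 genes, whereas the lengths assumed for each gene did, and the exact sign-flip test used for the ratios cannot go below 0.25 with 3 libraries.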

Other observations

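The genes whose products act on the other side of lysine 27 were measured in the same libraries. Ep300, which encodes the acetyltransferase p300, held 226.2, 222.3 and 221.8 CPM (15.7 ± 0.169 CPM per kb, SD, n = 3), and its paralog Crebbp held 47.2, 49.8 and 50.8 CPM (3.64 ± 0.137 CPM per kb). Ep300 was 4.30-fold above Crebbp per kilobase of exon and 5.13-fold by longest coding transcript. Of this pair 0 passed the adjusted chi-square between libraries, against 43.8% of all genes tested. The replacement histone H3.3 is encoded by H3f3a and H3f3b. H3f3b held 839.3 ± 10.2 CPM (282 CPM per kb), 10.2-fold above H3f3a (96.9 ± 6.24 CPM, 27.7 CPM per kb) and 9.80-fold by coding transcript. Both passed the chi-square (adjusted p = 0.00686 and 4.48e-08), and of the 50-base windows of H3f3a 30.3% also occurred in other genes.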
